A study of Homo sapiens with 3 samples.

Results

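The mRNAs that encode the proteins of the cytosolic ribosome, together with their L-type paralogs, were followed in an RNA immunoprecipitation of the RNA-binding protein MEX3A. Members were the protein-coding genes named RPSA, FAU, RPL, RPS or RPLP followed by a number, with an optional A, X or L suffix. This rule took 87 of the 57820 genes listed in both tables, and 83 of them are described: 45 core genes of the large subunit, 30 core genes of the small subunit and 8 paralogs whose symbol ends in L or in L and a digit. The cells were of the established renal carcinoma line ACHN, of human origin, with stable expression of Flag-tagged MEX3A, and were fixed with 0.3% formaldehyde. RNA brought down with an anti-Flag antibody was compared with RNA brought down with IgG, the background control, and both came from cells that carry the same MEX3A-Flag. The labels do not say whether the stable line is a single clone. Each precipitate had 1 library, so no difference has a replicate check and no p-value was computed. Input RNA was not used here, and each ratio sets the Flag precipitate against the IgG precipitate.

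The cytosolic ribosome is built from ribosomal RNAs and a set of core proteins, most of them encoded by a single functional gene and made in near-equal amounts. Their mRNAs are short and abundant, and most start with a run of pyrimidines that begins with C, the terminal oligopyrimidine or TOP start, through which their translation follows mTOR signalling. A few core proteins have a second gene, marked by an L in its name, whose product can take the place of the core protein or is made mainly in certain tissues. MEX3A carries KH domains, binds mRNA and has been placed in cytoplasmic granules.

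The start sites below are shown because they show which members carry a TOP start and which L-type genes do not. They are RefSeq starts of build GRCh38.p14, matched by symbol, each with 20 bases before the start and 10 bases from the start on. Capitals mark the first 5 transcribed bases. The start of RPL24 lies at chr3:101686709-101686738 on the minus strand, that of RPS12 at chr6:132814549-132814578 on the plus strand and that of RPL26L1 at chr5:172958709-172958738 on the plus strand.
RPL24: gtctcttcccatgattctctCTTTCttttc
RPS18: gatatcgcgtcacttccgctCTCTCttcca
RPS7: ttccggtttccgccctcctcCTCGCgctgt
RPS12: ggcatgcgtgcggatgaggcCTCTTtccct
FAU: tgacgcgccctcgcttcttcCTCTTtctcg
RPL22: ctgcgtagttcgctcacctcCCTTTctaac
RPL22L1: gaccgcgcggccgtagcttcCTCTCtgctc
RPL26: accggaagcagcgtgtagttCTCTTccctt
RPL26L1: caggcagtcttccaggggtcGGCGAacgaa
RPL36A: ttccgtttgcctcgcggtttCTTTCtttcc
RPL36AL: tccgcctgtttcttccctttCCTGTtaggc
RPS27: gcaggatttccgctttcgctCCTTTccggc
RPS27L: cccggaagttgatgccgagcGCAGAtcgct
RPL7L1: cgcgccggaagtgcggcgccGTAGCtagga
RPL22, RPL26, RPL36A and RPS27 each start with C and 4 further pyrimidines, as do RPL24, RPS18, RPS12 and FAU. RPS7, also a core gene, does not, since its run of pyrimidines ends after 3 bases. Of the L-type genes shown, RPL22L1 has such a start, and RPL26L1, RPL36AL, RPS27L and RPL7L1 do not. RPL26L1 has 2 listed starts, and neither is a TOP start.

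Levels were counts per 1000000 library counts (CPM), with totals of 3412864 counts in the IgG and 5498124 in the Flag library. The 83 members together held 17246 counts in the IgG library, or 0.505% of it (exact 95% Clopper-Pearson interval 0.498% to 0.513%), and 31062 counts in the Flag library, or 0.565% (0.559% to 0.571%). At least 10 counts were found for 78 members in the IgG library and for 80 in the Flag library. A gene entered with at least 20 counts over both libraries, which 80 members did. RPL10L and RPL39L, known as testis paralogs, had 0 counts in either library. A count of 0 leaves room for 0.879 CPM in the IgG and for 0.546 CPM in the Flag library, the level of 3 counts. RPL3L, the muscle paralog of RPL3, had 2 counts in the IgG library and 0 in the Flag library and did not enter. Intervals cover counting error alone and no variation between libraries, since each precipitate had 1 library. Reads copied by PCR without molecular identifiers need not be separate molecules, so the intervals may be too narrow even for counting error.

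By the median ratio per gene, core ribosomal protein mRNAs stood low in the Flag library relative to other genes, and the L-type mRNAs stood high. A gene was called enriched when the 95% counting interval of its ratio of Flag CPM to IgG CPM lay wholly above 2, and depleted when it lay wholly below 0.5. Of the 80 entering members, 8 were enriched and 0 were depleted, where the same rule called 28.7% of all 10811 entering genes enriched and 1.32% depleted. Their median log2 ratio was -0.14, against 0.95 over all entering genes. Of the 80, 68 lay below that median of all genes. Among the 75 core genes alone, 4 were enriched, and the median was -0.21. Their summed counts did not stand low, with a ratio of 1.07 (1.05 to 1.09) against 0.755 for all entering protein-coding genes. Sums rest on abundant mRNAs, and core genes had a median of 157 IgG counts, against 28 for all entering genes. The L-type genes gave the other 4 enriched members, of 5 that entered, in part through high Flag counts.

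Where a ratio of 1 lies depends on which RNAs fill each library. Mitochondrially encoded RNAs held 33.0% of the Flag and 8.93% of the IgG counts. Scaling by trimmed means (TMM), which lowered every log2 ratio by 0.78, gave 6 enriched and 24 depleted members, against 12.0% and 6.12% of all entering genes. Of those 24, 16 were of the small and 8 of the large subunit, and all were core genes. The gap between the medians of members and of all genes was -1.09 under every scaling of the counts, which scaling cannot change. It depends on which genes enter, and was -0.66 with no minimum count, where the median of all genes was 0.53.

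**Figure D1:**
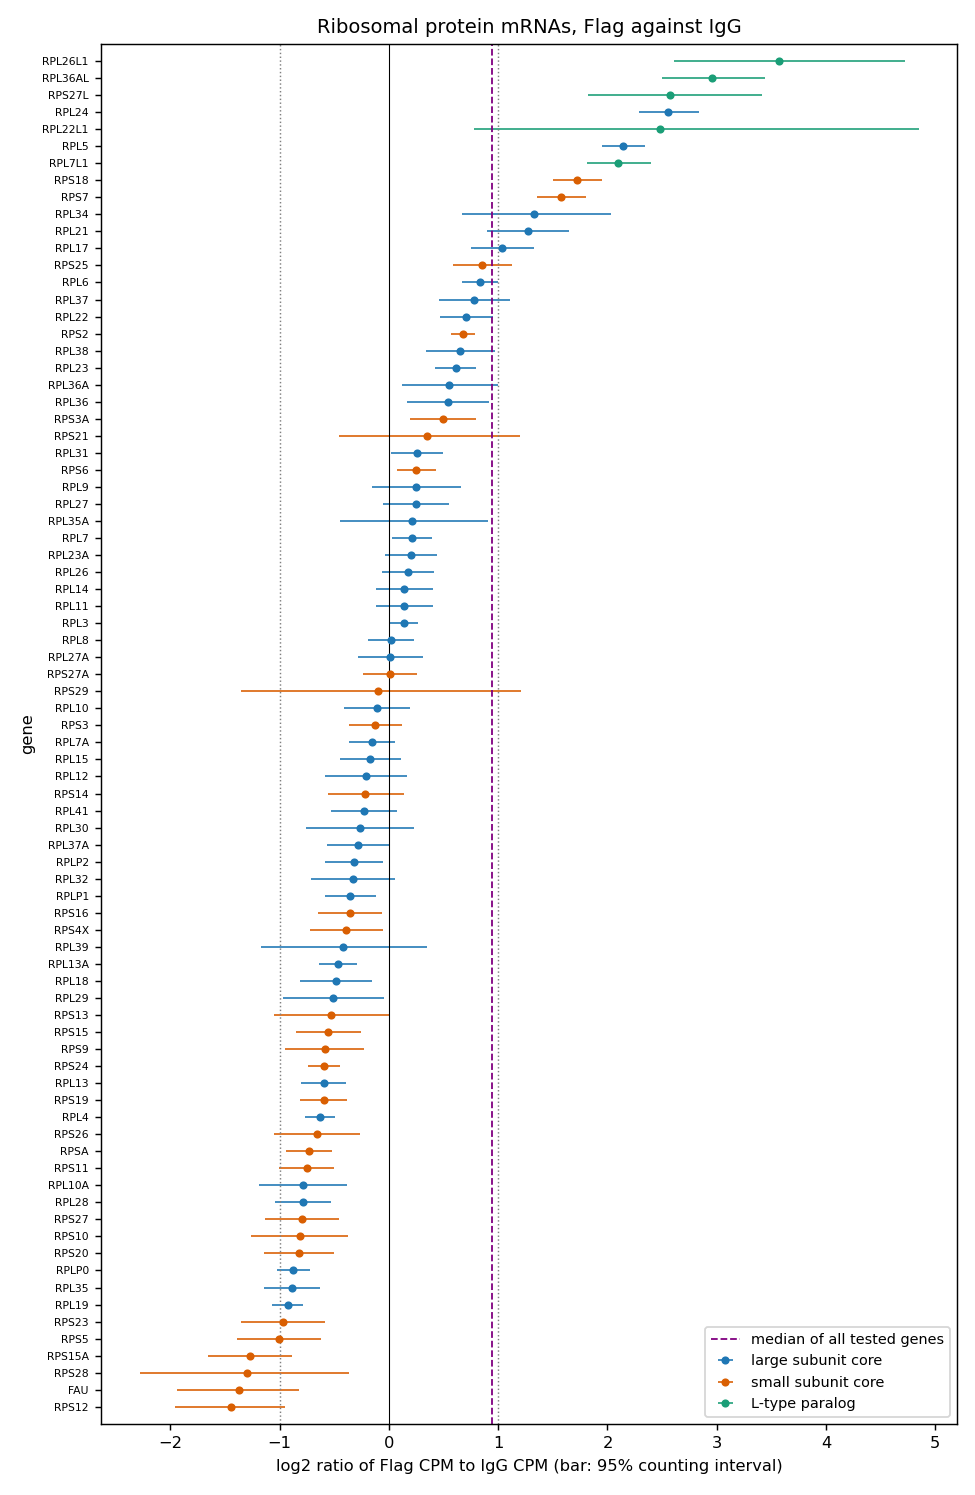
Log2 ratio of Flag CPM to IgG CPM for the 80 entering members, ordered by ratio, with 95% counting intervals as bars, dotted lines at 2-fold and a dashed line at the median of all entering genes. The L-type genes fill the upper end together with RPL24 and RPL5, most core genes lie left of the dashed line, and RPS12 and FAU are at the lower end.

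Among the 45 core genes of the large subunit, RPL24 and RPL5 were the 2 enriched, and 0 were depleted. The same rule called 28.7% of all entering genes enriched and 1.32% depleted. RPL24, a protein that takes part in the bridge to the small subunit, had 126 counts in the IgG library and 1195 in the Flag library, or 36.9 and 217 CPM. Its ratio of 5.89 (95% counting interval 4.90 to 7.13) was the highest of all core genes. RPL5 had 247 and 1756 counts, a ratio of 4.41 (3.86 to 5.06). RPL5 forms the 5S ribonucleoprotein with RPL11, which carries the 5S rRNA into the ribosome and can bind MDM2. RPL11 had 196 and 348 counts, a ratio of 1.10 (0.922 to 1.32). The ratios of these partners therefore did not overlap within counting error. Both RPL24 and RPL5 stayed enriched with TMM scaling and had TPM ratios of 5.58 and 4.39.

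RPL34 (24 and 97 counts, ratio 2.51), RPL21 (2.41) and RPL17 (2.05) came next in the large subunit. Their intervals reached below 2, so they were not called, though each passed 2-fold in TPM, as did RPL36 and RPL22. At the lower end stood RPL19 with 915 and 775 (0.526, 0.477 to 0.579), RPL35 with 270 and 235 (0.540, 0.452 to 0.646) and RPLP0 with 792 and 696 (0.545, 0.492 to 0.605). None of these 3 was called on total counts, and all 3 were depleted with TMM scaling. RPL19 was the most abundant member of the large subunit in the IgG library by counts, and it ranked below RPL5, RPL3, RPL24 and others in the Flag library.

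Between these ends the large subunit formed a continuous series. RPL6 had 392 and 1125 counts (1.78, 1.59 to 2.004), RPL37 109 and 302 (1.72, 1.38 to 2.16), RPL38 119 and 301 (1.57, 1.27 to 1.96) and RPL23 337 and 829 (1.53, 1.34 to 1.74). All 4 intervals lay above 1 and below the lower bounds of RPL5 and RPL24. RPL3, at the peptidyl transferase centre and among the most abundant members, had 729 and 1292 counts, close to even at 1.10 (1.004 to 1.21). RPL8, also near that centre, had 299 and 488 counts (1.01, 0.875 to 1.17). RPL13A, whose protein is known to leave the ribosome on interferon signalling, had 525 and 612 (0.724, 0.643 to 0.815), RPL13 380 and 405 (0.662, 0.574 to 0.763) and RPL28 271 and 253 (0.580, 0.486 to 0.690). Over the large subunit 15 intervals lay wholly above 1, 12 wholly below 1 and the other 18 spanned 1. Of all entering genes 58.1% had an interval wholly above 1 and 8.99% one wholly below 1.

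RPLP0, RPLP1 and RPLP2 encode the acidic stalk, which recruits elongation factors to the ribosome. Their ratios were 0.545, 0.783 (0.666 to 0.921) and 0.799 (0.666 to 0.961), and all 3 intervals lay below 1. Genes of the peptide exit tunnel and its rim ranged more widely. RPL19 and RPL35 were low, RPL4 had 826 and 860 counts (0.646, 0.587 to 0.712), RPL39 0.749, RPL23A 1.15 and RPL17 2.05. The effective length of RPL4 was estimated at 831 bases in the IgG and 565 bases in the Flag library, and its TPM ratio was 0.953.

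The small subunit had a lower median log2 ratio, -0.57 over 30 genes, than the large subunit with 0.02 over 45. Ratios below 1 were found for 22 of the 30 small subunit genes and for 21 of the 45 large subunit genes. The difference between these medians, 0.59, does not depend on scaling and ranged from 0.43 with genes of whole counts to 0.61 at a minimum of 100 counts. Summed counts did not show it. The large subunit had 10862 and 18969 counts and the small subunit 6197 and 10422, so the large subunit's share of core counts was 63.7% (62.9% to 64.4%) in the IgG and 64.5% (63.99% to 65.1%) in the Flag library. These intervals overlap, and the sums rest on a few abundant mRNAs. RPS2 alone had 955 counts in the IgG and 2457 in the Flag library. Without RPS2 the large subunit's summed ratio was 1.15 times that of the small subunit (1.10 to 1.20), and without RPL24 and RPL5 it was 0.908 times (0.872 to 0.945).

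RPS18 and RPS7 were the 2 enriched genes among the 30 core genes of the small subunit, where 28.7% of all entering genes were enriched. RPS18 had 196 and 1040 counts, a ratio of 3.29 (2.82 to 3.86), and RPS7 had 201 and 965 counts, a ratio of 2.98 (2.56 to 3.49). Both calls were lost with TMM scaling, at ratios of 1.92 and 1.74. RPS7 had fractional counts, meaning that part of its reads was divided with other genes. Both stand apart from most of their subunit, since the next small subunit gene, RPS25, had a ratio of 1.80. They do not stand apart from genes in general. Their log2 ratios of 1.72 and 1.58 lay below the upper quartile of all entering genes, 1.88. RPS2, which lies at the mRNA entry, had a ratio of 1.60 (1.48 to 1.72), while its neighbours RPS3 and FAU had 0.918 (0.775 to 1.09) and 0.386 (0.261 to 0.565).

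The lowest small subunit genes were RPS12 with 93 and 55 counts (0.367, 0.258 to 0.518), FAU with 74 and 46, RPS28 with 26 and 17 (0.406, 0.207 to 0.777) and RPS15A with 145 and 97 (0.415, 0.318 to 0.541). FAU encodes the protein eS30 fused to a ubiquitin-like protein. None of these 4 was called on total counts, since each upper bound lay above 0.5, and all 4 were depleted with TMM scaling and in TPM. RPS10, RPS12 and RPS27A form the beak of the small subunit. RPS12 and RPS10 (0.567, 0.418 to 0.770) lay below 1, and RPS27A, made as a fusion with ubiquitin, had 220 and 356 counts, a ratio of 1.00 (0.847 to 1.19). The intervals of RPS12 and RPS27A did not overlap.

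Abundant small subunit mRNAs lay on both sides of 1. RPS24 had 738 and 787 counts (0.662, 0.598 to 0.733), RPSA, also known as the laminin receptor, 388 and 376 (0.602, 0.521 to 0.695) and RPS19, the gene most often mutated in Diamond-Blackfan anaemia, 340 and 362 (0.661, 0.568 to 0.769). RPS6, the substrate of S6 kinase, had 408 and 782 counts, a ratio of 1.19 (1.05 to 1.34), and RPS3A 135 and 306 (1.41, 1.15 to 1.74). RPS29, with 10 and 15 counts (0.931, 0.391 to 2.32), was too shallow to place on either side. Over the small subunit 6 intervals lay wholly above 1, 18 wholly below 1 and 6 spanned 1, where 58.1% of all entering genes lay above and 8.99% below.

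Of the 5 L-type paralogs that entered, 4 were enriched, and none of their core partners was, where 28.7% of all entering genes were. RPL26L1 had 9 counts in the IgG library and 172 in the Flag library, a ratio of 11.9 (6.11 to 26.4). Its partner RPL26 had 232 and 422 counts, a ratio of 1.13 (0.960 to 1.33). RPL26L1 therefore made up 3.73% (1.72% to 6.97%) of the pair's counts in the IgG library and 29.0% (25.3% to 32.8%) in the Flag library. This share does not depend on how the libraries are scaled.

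RPL36AL had 42 and 525 counts, a ratio of 7.76 (5.66 to 10.9), against 1.47 (1.09 to 2.004) for RPL36A with 63 and 149. Its share of the pair was 40.0% (30.6% to 50.02%) in the IgG and 77.9% (74.6% to 81.0%) in the Flag library. The readthrough gene of RPL36A and HNRNPH2 held 19 and 9 further counts, and with them RPL36A had a ratio of 1.20. RPS27L, a p53-inducible paralog, had 16 and 153 counts, a ratio of 5.94 (3.54 to 10.6), against 0.577 (0.456 to 0.728) for RPS27 with 155 and 144. Its share of the pair went from 9.36% (5.44% to 14.7%) to 51.5% (45.7% to 57.3%). In TPM the ratio of RPS27L was smaller, 3.21, and its effective length was estimated at 360 bases in the IgG and 664 bases in the Flag library.

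RPL7L1 had 115 and 794 counts, a ratio of 4.29 (3.52 to 5.26), against 1.16 (1.02 to 1.32) for RPL7 with 382 and 713. RPL7L1 is known as a factor of early ribosome assembly rather than a part of the mature ribosome. RPL22L1 had 3 and 27 counts, and its ratio of 5.59 (1.72 to 28.8) missed a call. RPL22 had 190 and 500 counts, a ratio of 1.63 (1.38 to 1.94). In each of these 5 pairs the paralog's ratio exceeded the partner's, by 3.42 times for RPL22L1 (1.03 to 17.8), 3.70 times for RPL7L1 (2.92 to 4.71), 5.29 times for RPL36AL (3.36 to 8.34), 10.3 times for RPS27L (5.76 to 19.3) and 10.5 times for RPL26L1 (5.26 to 23.8). The pairs were those whose paralog entered, in part through high Flag counts. RPL3L, which did not enter, stood at 0 times RPL3 (0 to 3.01), with 2 and 0 counts. Summed, the 5 paralogs had 185 and 1671 counts, a ratio of 5.61 (4.81 to 6.56), where the 75 core genes had 17059 and 29391, a ratio of 1.07 (1.05 to 1.09). The 4 called paralogs of these 5 stayed enriched with TMM scaling. Counts were whole, within 0.01, in both libraries for RPL26L1, RPL36AL, RPS27L, RPL22L1 and RPS27. Those of RPL7L1 and of the partners RPL26, RPL36A, RPL7 and RPL22 were fractional, so the shares and ratios of those 4 pairs rest in part on divided reads. High ratios are common in these libraries, where the upper quartile of the log2 ratio over all genes was 1.88, and the 5 paralogs lay above it at 2.10 to 3.57.

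**Figure D2:**
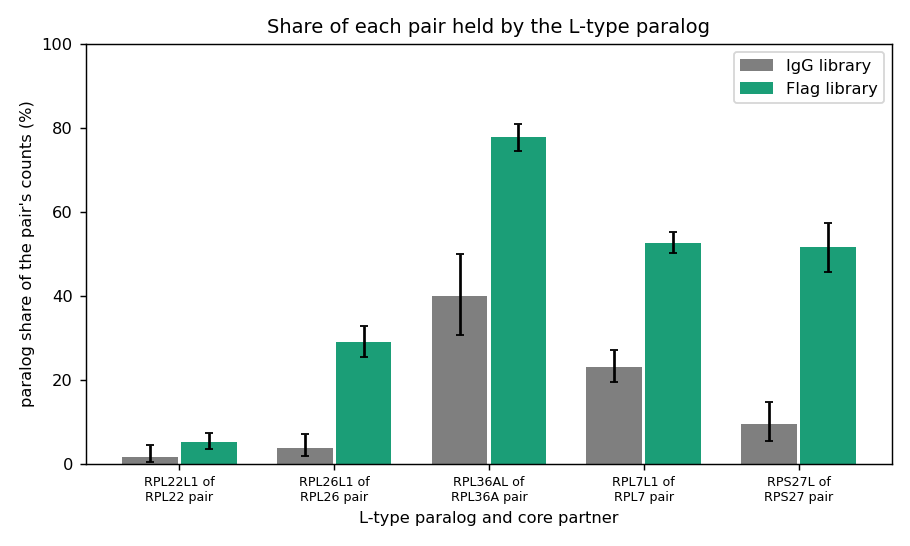
Share of each pair's counts held by the L-type paralog in the IgG (grey) and Flag (green) libraries, with exact 95% intervals that cover counting error alone. The share is higher in the Flag library for all 5 pairs, and goes from 3.73% to 29.0% for RPL26L1 and from 9.36% to 51.5% for RPS27L.

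Pseudogene copies held few counts. Named pseudogenes of the members, 797 listed genes, held 519 counts in the IgG and 859 in the Flag library. Those of RPL41 held 288 and 366 counts, more than RPL41 itself with 157 and 216, and the sum had a ratio of 0.814. For RPL23A the ratio was 1.15 alone and 1.40 with the 43 and 190 counts of its pseudogenes. Adding pseudogenes and readthrough genes to every member left 8 enriched and 0 depleted. Of the 80 entering members 18 had fractional counts. The 58 core genes with whole counts had a median log2 ratio of -0.34, and the 17 with fractional counts one of 0.21.

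Levels between genes are compared here in TPM, the deposited abundance per effective length. In the IgG library RPS24 came first among members at 665 TPM, followed by RPL19 at 486, RPS2 at 382, RPS19 at 301 and RPL35 at 292. In the Flag library RPS2 came first at 551 TPM, followed by RPL24 at 491, RPS18 at 435, RPS24 at 431 and RPL5 at 369. RPL24 and RPL5 ranked 43rd and 45th of the 83 in the IgG library. The medians of the entering core genes were alike, 106 TPM in the IgG and 105 TPM in the Flag library. Over all entering genes the median was higher in the Flag library, 8.69 TPM against 4.94 TPM in the IgG library. The medians of the 5 entering L-type genes were 8.57 and 41.5 TPM. At a pseudocount of 0.1, 14 members passed 2-fold upward and 5 downward in TPM, where 44.2% and 6.59% of all entering genes did. All 5 entering L-type genes were among the 14.

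**Figure D3:**
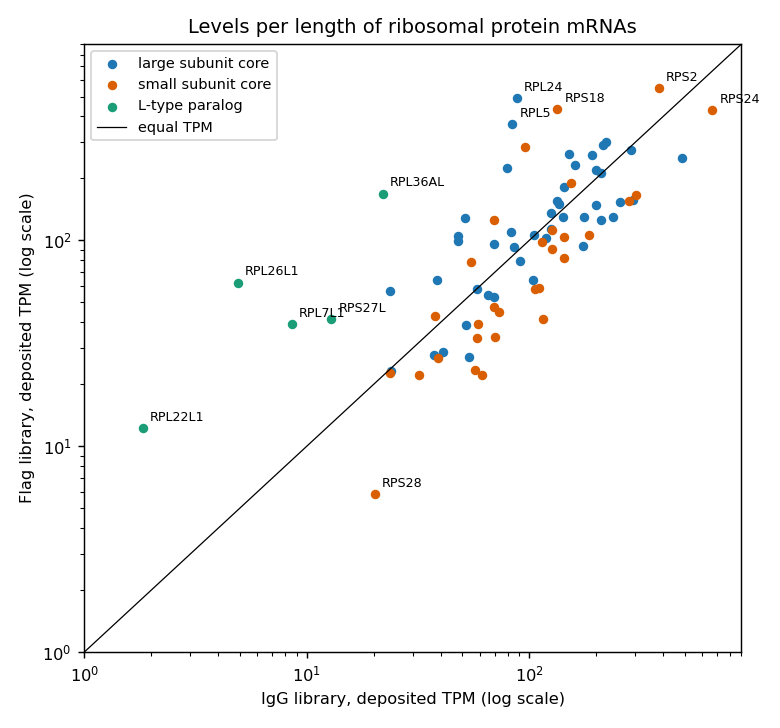
Deposited TPM of each entering member in the IgG library (horizontal, log scale) and in the Flag library (vertical, log scale), with a line at equal TPM. Core genes scatter around the line, RPL24, RPL5 and RPS18 lie above it, and the L-type genes lie above it at lower IgG levels.

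Length moved with the ratio across genes. Among protein-coding genes that are no members, the median log2 ratio was 0.12 for 225 genes with an effective length under 500 bases, 0.63 for 1506 genes of 500 to 1000 bases and 1.28 for 1399 genes of 4000 bases and over. Core ribosomal protein genes lay lower in both short classes, at -0.27 for 46 genes under 500 bases and -0.14 for 26 genes of 500 to 1000 bases. Within the class under 500 bases, 2 of 46 core genes were enriched, against 40 of 225 others. The part of length in the members' ratios was not tested. The L-type genes other than RPL7L1 that entered had mean effective lengths in the same 2 short classes as the core genes. RPL7L1 was estimated at 3880 bases in the IgG and 3654 bases in the Flag library. Other protein-coding genes of 2000 to 4000 bases had a median log2 ratio of 1.17. Its partner RPL7, at 497 and 426 bases, lies in the class under 500 bases, so this pair is not matched in length.

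**Figure D4:**
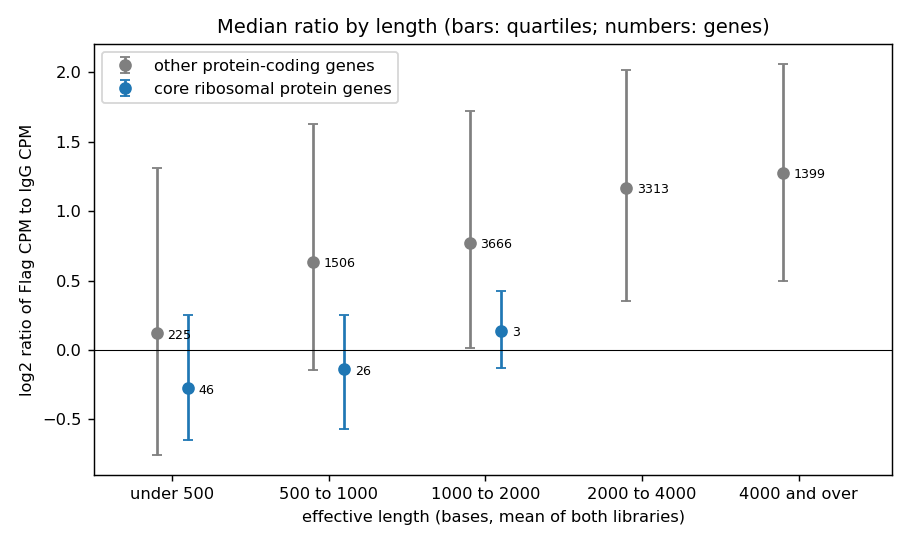
Median log2 ratio of Flag CPM to IgG CPM by effective length for core ribosomal protein genes (blue) and other protein-coding genes (grey), with quartiles as bars and the number of genes beside each point. The grey medians go from 0.12 in the shortest class to 1.28 in the longest, and the blue medians lie below the grey ones in each of the 3 classes that hold core genes.

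A TOP start was searched in the transcribed strand as a C at the RefSeq start followed by 4 bases that are each C or T. Promoter entries were found for 69 members by symbol. Of the 63 core genes listed, 47 had a TOP start at 1 or more of their starts, or 74.6%, as did 1 of 6 L-type genes listed, RPL22L1. The share was 5.14% among all 27305 genes with promoter entries. Core genes with a TOP start had a median log2 ratio of -0.21 and the 16 without one -0.25, so the medians of the listed core genes did not separate by this annotated start. The 12 core genes without a promoter entry, RPL5 and RPS2 among them, had a median of 0.11 and could not be placed. RPL24 and RPS18, both enriched, and RPS12 and FAU, both near the lower end, all have it. Other protein-coding genes with a TOP start had a median of 0.78 over 567 genes, against 0.96 over 7191 without one. A match describes the annotated start and not the RNA ends in these cells.

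Genes of Diamond-Blackfan anaemia, an inherited failure of red cell production caused mostly by loss of a ribosomal protein gene copy, were mostly not called on total counts. Of 18, RPL5 and RPS7 were enriched and 0 were depleted, against 28.7% and 1.32% of all entering genes, and the median log2 ratio was -0.33. With TMM scaling 1 was enriched and 8 were depleted, against 12.0% and 6.12% of all entering genes. The other 57 core genes had a median of -0.21.

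Ribosome biogenesis factors, which process ribosomal RNA and assemble the subunits, stood between the core genes and all genes by median ratio. All 76 listed factors entered. On total counts 18 were enriched and 1 depleted, where 28.7% and 1.32% of all entering genes were. TMM scaling gave 8 and 9, where 12.0% and 6.12% of all entering genes were called, so the enriched shares of the factors lay near those of all genes. The median log2 ratio was 0.61 on total counts. SBDS, which releases EIF6 from the new large subunit, had 15 and 235 counts, a ratio of 9.72 (5.78 to 17.7). PNO1, of small subunit assembly, had 18 and 254 counts, a ratio of 8.76 (5.43 to 15.0). WDR12 had a ratio of 5.91 (4.19 to 8.59), but 0.503 in TPM. BOP1, which joins WDR12 and PES1 in the PeBoW complex, had 94 and 49 counts, a ratio of 0.324 (0.224 to 0.462), with fractional counts. NCL, the abundant nucleolar protein gene nucleolin, had 3244 and 2713 counts, a ratio of 0.519 (0.493 to 0.546), and TCOF1 0.524 (0.461 to 0.595). Neither was called on total counts, and both were depleted with TMM scaling.

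The tagged gene MEX3A had 5 counts in the IgG and 103 in the Flag library. Of 10 renal epithelial and carcinoma markers 9 were detected in both libraries, at a summed 752 and 875 TPM, and CDH6 was at 0 in both. Of 6 markers of leukocytes, hepatocytes, glia, endothelium and red cells that were listed, 5 were at 0 in both libraries, and GFAP had 7 and 17 counts.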

How the data were processed

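Members and gene lists were chosen with earlier results of these data known, and no list was tested. Of the genes the naming rule takes, 4 are not reported here and enter none of the members' counts or medians; library totals, scalings and all-gene values include them. The expected counts, estimated reads per gene, were deposited unnormalized in columns named as RSEM names them, per the file headers. TPM, per length and scaled to a common total, were deposited too, per the file headers; the deposited FPKM were not used. Per the submitters' processing notes, RSEM and STAR were used with builds GRCh37 and hg19, and neither versions nor roles are stated. The annotation release, filters and strandedness are not given in the sources, so overlapping antisense reads cannot be told apart.

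Expected counts were rounded and divided by library totals. The interval of a ratio came from the exact 95% Clopper-Pearson interval of the Flag share of a gene's counts. That of a paralog over its partner was the exact conditional one (scipy 1.17.1), and that of summed subunits a normal one on the log scale. The calculation was tested on simulated data. Alternatives included TMM (edgeR 4.0.16) and median-of-ratios scaling (DESeq2 1.42.0) over all genes, other totals, minimum counts and thresholds, and TPM. Named were all called members, the 6 at each end of the bounds, the 5 most abundant per library, L-type genes with partners, and structural groups; others were named after their values were seen.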

Additional observations from a re-analysis of the deposited data

How the results depend on the processing

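No paired analysis was possible because each group has 1 library. The L-type minus core difference in median log2 ratio, 2.78, ranged from 2.43 with TPM at a pseudocount of 1 to 3.10 with genes of whole counts. That difference and the one between subunits stayed within the range that the members' counting intervals allow under every alternative run on them. The range is wide, since it sets the lower bounds of 1 group against the upper bounds of the other. Scaling of the counts cannot change either difference. The counts of called members moved more. Depleted members numbered 24 of 80 with TMM or median-of-ratios scaling, where 6.12% and 6.24% of all genes were depleted. They numbered 5 (6.25%) when mitochondrial RNAs and the top 10 other genes were left out of the totals (all genes 2.38%), 5 with TPM at a pseudocount of 1 or 0.1 (4.96% and 6.59%) and 8 at a 1.5-fold threshold (2.76%), against 0. Enriched members numbered 14 (17.5%) with TPM at those pseudocounts (all genes 37.7% and 44.2%), 13 (16.2%) at a 1.5-fold threshold (40.0%), 3 (3.75%) at a 4-fold threshold (8.55%), and 57 (71.2%) with totals of the 30 nuclear genes most abundant in the IgG library (82.3%). The median log2 ratio of members was -0.92 with TMM, -0.93 with median-of-ratios scaling and 1.70 with those 30 genes, against all-gene medians of 0.17, 0.16 and 2.78. All entering genes gave 1293 enriched and 662 depleted with TMM, against 3100 and 143. TPM depend on a few short RNAs, since SNORD3A alone holds 33.1% of the IgG and 17.8% of the Flag TPM. The gap between the medians of members and all genes was -0.78 with TPM at a pseudocount of 1 and -0.66 with no minimum count. Of the 80 entering members, none called on total counts changed side of 1 under any alternative. Most alternatives could not have changed it. Thresholds, intervals and minimum counts leave a ratio as it is. TMM and median-of-ratios scaling lowered log2 ratios by 0.78 and 0.79, less than the 1.58 of RPS7, the lowest called. Of the members not called, 22 changed side with TMM, 23 with median-of-ratios scaling, 14 with the reduced totals, 43 with the 30 genes, 2 with TPM and 1 with pseudogenes summed. Among assembly factors WDR12 turned to 0.529 and 0.503 with TPM, and BOP1 to 1.16 with the 30 genes.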

Other observations

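GNB2L1, a ribosomal gene outside the naming rule, which encodes RACK1 on the head of the small subunit, had 209 counts in the IgG library and 660 in the Flag library, and its ratio was 1.96 (1.68 to 2.30), with no call.

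Assembly factors among the enriched genes came from both subunits. Of the 76 listed factors 18 were enriched and 1 depleted, where 28.7% and 1.32% of all entering genes were. RSL24D1, the nuclear relative of RPL24 that holds its place in the immature large subunit, had 33 and 251 counts, a ratio of 4.72 (3.28 to 7.01), beside 5.89 for RPL24. RPF2, which together with RRS1 brings the 5S ribonucleoprotein of RPL5 and RPL11 into the early large subunit, had a ratio of 4.13 (2.65 to 6.71), and RRS1 one of 2.83 (2.03 to 4.03). RPL5 had a ratio of 4.41 and RPL11 one of 1.10. TSR1, of the small subunit, had 102 and 706 counts, a ratio of 4.30 (3.49 to 5.34), with fractional counts. The assembly factors named here were singled out after their values were seen. The calls of RSL24D1, RPF2 and RRS1 were lost with TMM scaling, at ratios of 2.75, 2.41 and 1.65. That of TSR1 was kept at 2.51.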
